A study of Homo sapiens with 17 samples.

Results

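Cyclins are the regulatory subunits of the cyclin-dependent kinases, and some of them are made and destroyed once in each cell cycle. The D cyclins bind CDK4 and CDK6 in G1 and are made in response to growth signals, the E cyclins bind CDK2 at the entry into S phase, cyclin A2 acts in S phase and G2, and cyclin B1 drives mitosis with CDK1. Cyclin G1 is a target of p53 and cyclin G2 is raised in cells that leave the cycle. The mRNAs of 9 such genes, CCND1, CCND2, CCND3, CCNE1, CCNE2, CCNA2, CCNB1, CCNG1 and CCNG2, were followed here by symbol among the 19222 genes listed in the 1 h experiment, and all 9 were found there and among the 9982 genes of the 2 h experiment.

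The cells were wild-type HEK-293T, a transformed human embryonic kidney line that carries the SV40 large T antigen, which binds RB and p53, and the untreated groups carry it as well. The 1 h experiment comprised 3 untreated and 3 emetine libraries (1.8 µM), all with 500 µM of the uridine analog s4U for the same hour, and 1 untreated and 1 emetine library without s4U. At 2 h there were 9 libraries, namely 3 untreated, 3 at the 1.8 µM dose and 3 at 240 µM, all with 250 µM s4U. Emetine blocks translation elongation. s4U enters RNA made during the hour and is read as a T-to-C conversion after TimeLapse chemistry, so that the fraction new, the share of a gene's reads that come from RNA made in that hour, can be estimated. No label says that replicates were separate cultures, and p-values then measure only the spread between these libraries. No label gives a synchronization of the cells, so each value is an average over whatever cycle phases the dishes held, and a change in the share of cells in a phase cannot be told apart from a change within cells.

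In GENCODE 44 on hg38 the D cyclin genes lie at chr11:69641156-69654474 (CCND1), chr12:4269771-4305353 (CCND2) and chr6:41934934-42050357 (CCND3), and the E cyclin genes at chr19:29811991-29824312 (CCNE1) and chr8:94879770-94896678 (CCNE2). CCNA2 lies at chr4:121816444-121823883, CCNB1 at chr5:69167135-69178245, CCNG1 at chr5:163437569-163446151 and CCNG2 at chr4:77157207-77433388. CCND3, CCNE2 and CCNA2 are on the minus strand.

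The 6 libraries with s4U held 22246279 to 40018063 reads given to genes, and the cyclin genes held 292 (CCNE2) to 12888 (CCNB1) of them per library. Of 6 genes listed as markers of HEK-293T cells, VIM, NEFM and NEFL lay at 102 CPM (counts scaled to library size) or more in all 8 libraries of the 1 h experiment, CDH2 at 62.6 to 105 CPM, KRT18 at 33.2 to 61.0 CPM and KRT8 at 3.76 to 7.06 CPM, while PTPRC, HBB and CD3E were not listed, ALB, DCN, PECAM1 and CDH5 reached at most 0.359 CPM, and the fibroblast gene COL1A1 lay at 19.4 to 28.1 CPM. Untreated replicate 1 was labeled less than the others: its median fraction new over 10763 genes was 9.26%, against 12.3% and 14.7% in the other untreated libraries and 10.3% to 11% in the emetine libraries. Emetine replicate 3 stood apart in level, with an SD of 0.26 over genes for its log2 deviation from the emetine mean, against 0.13 and 0.15 in emetine replicates 1 and 2. That deviation rose with transcript length (Spearman's rho 0.77 over 9882 genes, a description only).

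The 9 mRNAs covered a wide range of turnover in untreated cells. CCNG2 was the most rapidly renewed, with a fraction new of 32.5%, 48.4% and 52.7% in the 3 untreated libraries, and CCNG1 the least, with 6.04%, 7.93% and 8.26%. Both encode G cyclins, and their ranges lay far apart. Ordered by the untreated mean, CCNG2 (44.5% ± 10.6, SD, n = 3) was followed by CCND1 (33.6% ± 6.6), CCNE1 (31.0% ± 6.55), CCNE2 (19.8% ± 6.09), CCND2 (16.9% ± 3.56), CCNA2 (12.9% ± 2.81), CCNB1 (11.2% ± 2.87), CCND3 (10.1% ± 3.27) and CCNG1 (7.41% ± 1.2). The untreated means of CCNG2 and CCND1 exceeded those of 93.4% and 87.9% of the 10763 genes, while the mean of CCNG1 exceeded those of 28.6%. Most of the SD was shared by the genes of a library, because untreated replicate 1 was lowest for all 9 genes.

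Within a library the order varied little. CCNG2 ranked first and CCNA2 sixth in 6 of 6 libraries, and CCND1 and CCNE1 held ranks 2 and 3 in all 6. In the untreated libraries the ranges of every pair of neighbors in the order overlapped, but within each library the higher gene of the pair lay above the lower one in 3 of 3, except for CCNE2 and CCND2, where this held in 2 of 3. The difference between CCNE1 and CCNE2 was 11.2 ± 0.49 percentage points (SD, n = 3), and that between CCNB1 and CCND3 was 1.05 ± 0.62. CCND3, CCNG1 and CCNB1 shared the last 3 ranks in 6 of 6 libraries.

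**Figure D1:**
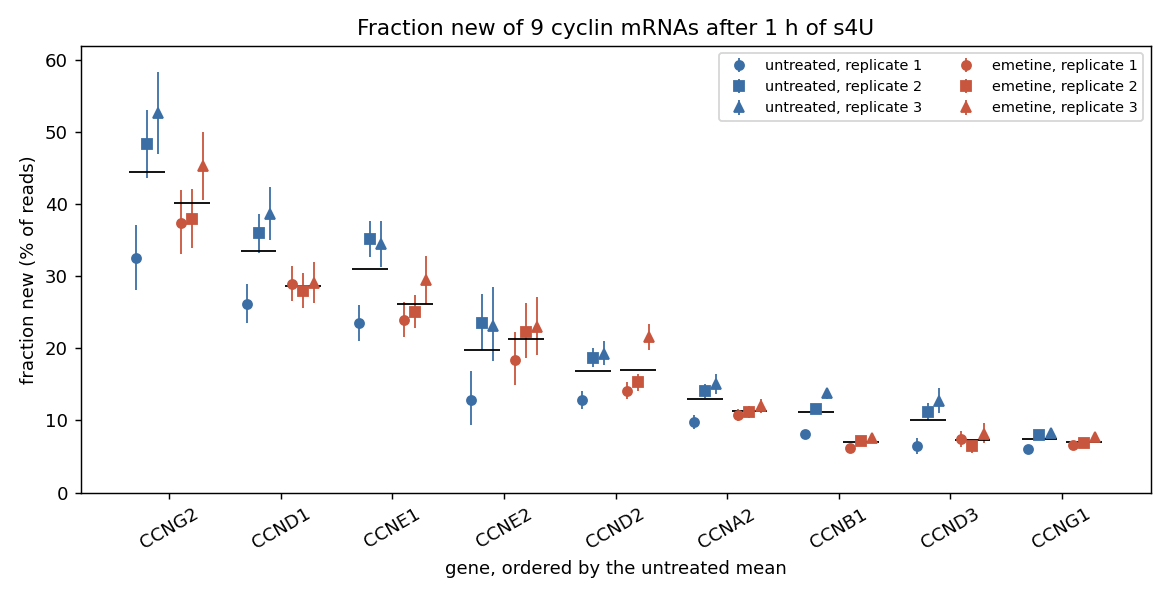
Fraction new (% of reads) of each gene in the 3 untreated (blue) and 3 emetine (red) libraries with s4U, with 95% profile-likelihood intervals and the group mean as a black line. CCNG2 lies highest in every library and CCNB1, CCND3 and CCNG1 lowest; the emetine values of CCNB1 (6.23% to 7.59%) lie below all its untreated values (8.08% to 13.8%).

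If labeling ran for the whole hour and levels were steady, these untreated values correspond to half-lives of 1.25 ± 0.45 h for CCNG2, 1.75 ± 0.47 h for CCND1, 1.94 ± 0.56 h for CCNE1, 3.43 ± 1.42 h for CCNE2 and 3.88 ± 1.01 h for CCND2 (SD, n = 3). The longer-lived mRNAs were CCNA2 (5.20 ± 1.36 h), CCNB1 (6.17 ± 1.84 h), CCND3 (7.12 ± 2.88 h) and CCNG1 (9.18 ± 1.69 h). CCND1 and CCND3, whose proteins share CDK4 and CDK6 as partners, thus stood near opposite ends of the order.

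The conversions behind these estimates were far above background. In untreated replicate 2, 208 of 461 CCNG2 reads (45.1%) carried at least 2 conversions, as did 1273 of 12664 CCNB1 reads (10.1%) and 726 of 9816 CCNG1 reads (7.40%). Without s4U, 0 to 7 reads of a cyclin gene carried 2 or more conversions in a library, at most 0.352% of its reads. The share of all T positions of the cyclin genes read as C was 0.034% to 0.077% without s4U and 0.579% to 4.38% with it.

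**Figure D2:**
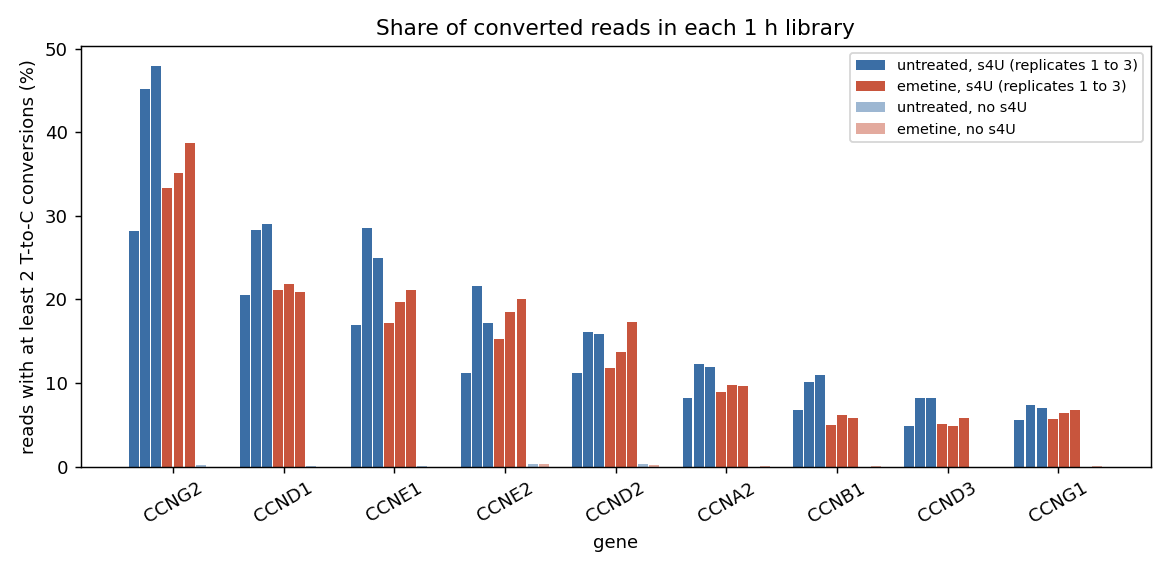
Share of reads (%) with at least 2 T-to-C conversions for each gene, one bar per library, for the 3 untreated (blue) and 3 emetine (red) libraries with s4U and the 2 libraries without s4U (pale). The shares run from 4.84% for CCND3 in emetine replicate 2 to 47.9% for CCNG2 in untreated replicate 3, and stay at or under 0.352% without s4U.

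Levels followed a different order. Per kb of the canonical transcript, CCNB1 was the most abundant in untreated cells (185 ± 6.06 CPM per kb, SD, n = 3), followed by CCNG1 (121 ± 5.27), CCNA2 (52.9 ± 3.22), CCND3 (40.8 ± 1.65), CCNE1 (22.5 ± 0.96), CCND2 (16.7 ± 0.47), CCND1 (9.20 ± 0.56), CCNE2 (4.86 ± 0.36) and CCNG2 (2.66 ± 0.22). The 3 untreated values of each gene lay apart from those of its neighbors, and the order of the 9 genes in the emetine group was the same, again without overlap between neighbors. CCNG2, the gene with the highest fraction new, was thus the least abundant per kb. In CPM, not divided by length, the untreated mean of CCNE2 (13.0) was below that of CCNG2 (14.5).

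**Figure D3:**
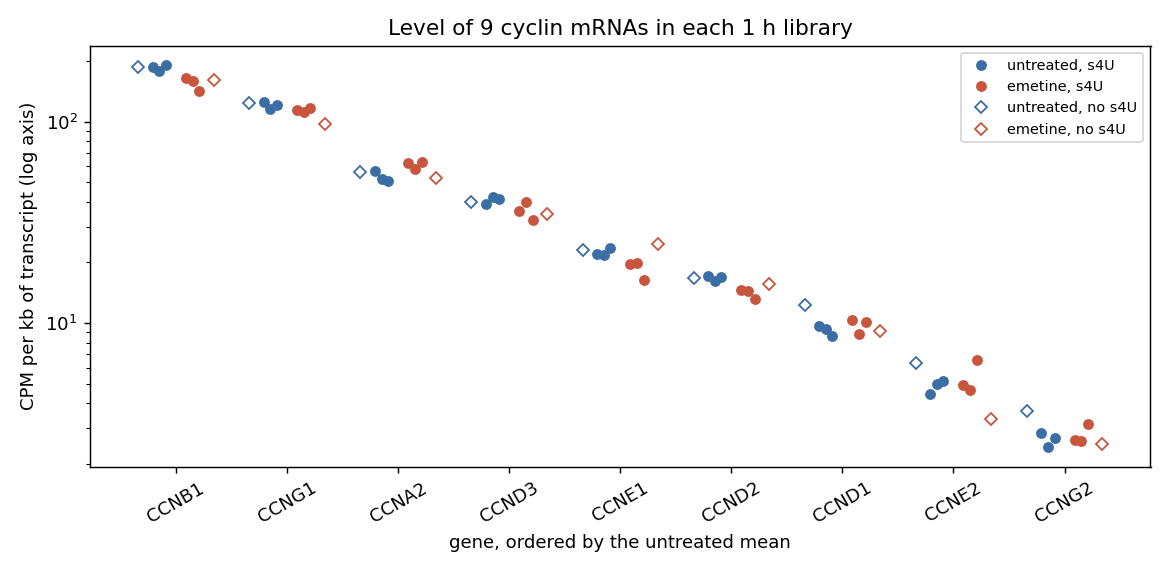
Level (CPM per kb of transcript, log axis) of each gene in the libraries with s4U (filled circles) and without (open diamonds), untreated in blue and emetine in red. The genes span from 2.41 CPM per kb (CCNG2, untreated replicate 2) to 191 CPM per kb (CCNB1, untreated replicate 3) among the libraries with s4U.

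The first comparison asked how 1 h of emetine changed the level of these mRNAs. None of the 9 was called at an adjusted p under 0.05 (edgeR quasi-likelihood test, Benjamini-Hochberg adjustment over 13776 genes), where 2.64% of all genes were called higher and 0.0436% lower. CCNA2 was higher in the emetine libraries without overlap and CCNB1, CCNE1 and CCND2 were lower without overlap; over all genes, 19.5% had their emetine libraries above and 15.2% below all untreated ones. The same 4 genes were those with an unadjusted p under 0.05, a side reached by 14.9% of all genes upward and 6.95% downward. By DESeq2, 1 gene, CCND2, passed the adjusted threshold as lower, where DESeq2 called 1.13% of all genes lower and 5.95% higher. The median change of the 9 genes was -0.07 (log2), against 0.03 over all genes tested.

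Among the D cyclins, CCND2 lay at 111, 105 and 110 CPM in untreated cells and at 95, 93.2 and 85.8 CPM after emetine. All 3 emetine values were below all untreated ones, a log2 change of -0.25 (95% interval -0.44 to -0.06, adjusted p = 0.158, edgeR); DESeq2 gave it an adjusted p of 0.0489, and without emetine replicate 3 edgeR gave -0.20 and 0.0316, with 3.87% of all genes called lower in that fit. CCND3 read 79.0, 85.4 and 83.8 CPM untreated and 73.2, 81.0 and 66.0 CPM after emetine, with 1 emetine value inside the untreated range. CCND1 read 41.1, 39.4 and 36.4 CPM against 43.9, 37.3 and 42.7 CPM, and its groups overlapped. The log2 changes of CCND3 and CCND1 were -0.17 (-0.39 to 0.05) and 0.08 (-0.15 to 0.31).

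Of the E cyclins, CCNE1 read 43.0, 42.7 and 46.1 CPM in untreated cells and 38.3, 38.7 and 32.0 CPM after emetine, all lower, for a log2 change of -0.27 (-0.51 to -0.04, adjusted p = 0.197, edgeR). CCNE2 read 11.9, 13.3 and 13.8 CPM untreated and 13.1, 12.5 and 17.6 CPM after emetine. Its groups overlapped, the highest value being emetine replicate 3, and its log2 change was 0.14 (-0.21 to 0.49).

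With s4U the later cyclins CCNA2 and CCNB1 lay on opposite sides of their untreated levels, and neither was called. CCNA2 read 155, 142 and 139 CPM in untreated cells and 171, 159 and 174 CPM after emetine, all higher, for a log2 change of 0.21 (0.01 to 0.41, adjusted p = 0.217, edgeR). CCNB1 read 378, 363 and 387 CPM untreated and 334, 322 and 288 CPM after emetine, all lower, for -0.26 (-0.47 to -0.04, adjusted p = 0.187, edgeR). Without emetine replicate 3 the change of CCNB1 was -0.19 and its adjusted p 0.0374, beside the same 3.87% of all genes called lower. CCNG1 read 307, 281 and 297 CPM against 281, 273 and 287 CPM, and CCNG2 read 15.6, 13.2 and 14.8 CPM against 14.4, 14.1 and 17.3 CPM. Both G cyclins overlapped between groups, with log2 changes of -0.07 (-0.27 to 0.12) for CCNG1 and 0.07 (-0.22 to 0.37) for CCNG2.

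The second comparison concerned the fraction new. It was tested on its logit, the natural logarithm of the odds, by limma over 10763 genes. None of the 9 genes was called at an adjusted p under 0.05, with 4.83% of all genes called lower and 0.214% higher; CCNB1 was the one gene of the 9 whose groups did not overlap, and the one with an unadjusted p under 0.05, a side reached by 15.4% of all genes downward and 1.15% upward. Over all genes the emetine values lay wholly below the untreated ones in 16.8% and wholly above in 2.2%. CCNB1 read 8.08%, 11.6% and 13.8% in untreated cells and 6.23%, 7.19% and 7.59% after emetine, a logit change of -0.49 (-0.92 to -0.06, adjusted p = 0.208, limma). The lowest untreated value came from the library that was labeled least. Relative to the median of its own library, CCNB1 stood at 0.87, 0.94 and 0.94 times in untreated cells and at 0.59, 0.65 and 0.74 times after emetine, so the groups lay apart on that scale too. With each library centered on its median the change was -0.37 with an adjusted p of 0.0653, with libraries weighted by their reads it was -0.49 with 0.0263, and without untreated replicate 1 it was -0.66 with 0.0157. The weighted fit called 4.8% of all genes lower and the fit without untreated replicate 1 called 23.4% lower.

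The other 8 mRNAs overlapped between the groups. CCND1 read 26.1%, 36.0% and 38.7% untreated and 29.0%, 28.0% and 29.1% after emetine, and CCND3 read 6.43%, 11.2% and 12.7% against 7.40%, 6.39% and 8.16%. In both genes the 2 better-labeled untreated libraries were above all emetine ones and untreated replicate 1 was below or among them. Without that replicate both were called, with logit changes of -0.39 (adjusted p = 0.0390, limma) for CCND1 and -0.54 (adjusted p = 0.0303, limma) for CCND3, in the fit that called 23.4% of all genes lower. CCND2 read 12.8%, 18.7% and 19.3% against 14.1%, 15.3% and 21.6%, the highest value being emetine replicate 3.

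CCNE1 read 23.5%, 35.2% and 34.4% in untreated cells and 24.0%, 25.1% and 29.4% after emetine, and CCNE2 12.8%, 23.5% and 23.1% against 18.4%, 22.3% and 23.0%. CCNA2 read 9.75%, 14.1% and 15% against 10.7%, 11.1% and 12%. For all 3 the least labeled untreated library was the lowest of the 6. CCNG1 (6.04%, 7.93% and 8.26% against 6.55%, 6.92% and 7.69%) and CCNG2 (32.5%, 48.4% and 52.7% against 37.5%, 38.0% and 45.3%) overlapped as well. CCNG2 ranked first in all 6 libraries, while CCNG1 ranked last in the 3 untreated and eighth in the 3 emetine libraries, where CCNB1 (mean 7.01%) and CCNG1 (7.05%) were last and next to last by their means. The intervals of the 8 logit changes all held 0 and reached from -0.76 (CCND3, lower end) to 0.55 (CCNE2, upper end). For each of these genes, changes of either sign within its own interval thus remain compatible with these libraries. The median change of the 9 genes was -0.17, against -0.16 over all genes tested.

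Multiplying the level by the fraction new gives labeled reads, those of RNA made during the hour, and the remainder gives unlabeled reads, those of older RNA. CCNB1 had 30.6, 42.2 and 53.3 labeled CPM in untreated cells and 20.8, 23.1 and 21.9 after emetine. All emetine values were below all untreated ones, a log2 change of -0.89 (-1.32 to -0.46, adjusted p = 0.0138, limma), so that labeled reads fell by 45.9%. CCNB1 was the one cyclin gene of the 9 called lower, 0.632% of all genes were called lower and 0.26% higher, and none of the 9 was called higher. Its change ranked lower than all but 0.483% of the genes tested. The unlabeled reads of CCNB1 read 348, 321 and 334 CPM against 313, 299 and 266, a log2 change of -0.19 (-0.42 to 0.03, adjusted p = 0.240, limma).

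The call of CCNB1 held without 1 library but not without any of the other 5. With each library left out in turn its change stayed between -1.10 and -0.70, and its adjusted p was 0.000237 without untreated replicate 1 but 0.109 to 0.467 without any of the other 5. Of all genes, 96 were called for labeled reads with all 6 libraries. That number was 1801 without untreated replicate 1 and 15 to 53 without any of the other 5. Scaling to the spike-in reads, which shifts the median of all genes by 0.41 for labeled reads, gave -0.27 with an adjusted p of 0.788.

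CCNE1 also had fewer labeled reads without overlap, 10.1, 15.03 and 15.9 CPM in untreated cells and 9.20, 9.71 and 9.43 after emetine, for a log2 change of -0.48 (-0.96 to -0.01, adjusted p = 0.395, limma). Over all genes the emetine labeled reads lay wholly below in 11.3% and wholly above in 3.32%. CCND3 had 5.08, 9.58 and 10.6 labeled CPM against 5.42, 5.17 and 5.39, where the low untreated value was again replicate 1, and its log2 change was -0.55 (-1.05 to -0.06, adjusted p = 0.343, limma). Without untreated replicate 1 both passed the threshold, CCNE1 at an adjusted p of 0.0119 and CCND3 at 0.00523 in limma, where 16.1% of all genes were called lower against 0.632% with all 6 libraries. The labeled reads of CCNA2 did not follow those of CCNB1, with 15.2, 20.03 and 20.8 CPM against 18.4, 17.8 and 20.8 and a log2 change of 0.03 (-0.41 to 0.48).

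None of the 9 genes was called for unlabeled reads, where 7.3% of all genes were called higher and 0.0929% lower in limma. At an unadjusted p under 0.05, CCNA2 was higher and CCND2 lower, as were 19.4% and 7.06% of all genes. Over all genes the emetine unlabeled reads lay wholly above in 23.9% and wholly below in 16.2%. CCNA2 had 140, 122 and 118 unlabeled CPM in untreated cells and 153, 142 and 153 after emetine, all higher, with a log2 change of 0.24 (0.01 to 0.46, adjusted p = 0.176, limma). CCND2 had 96.4, 85.6 and 89.0 against 81.6, 79.0 and 67.3, all lower, with -0.25 (-0.49 to -0.01, adjusted p = 0.176, limma). These log2 values were close to those of the level of the same genes.

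**Figure D4:**
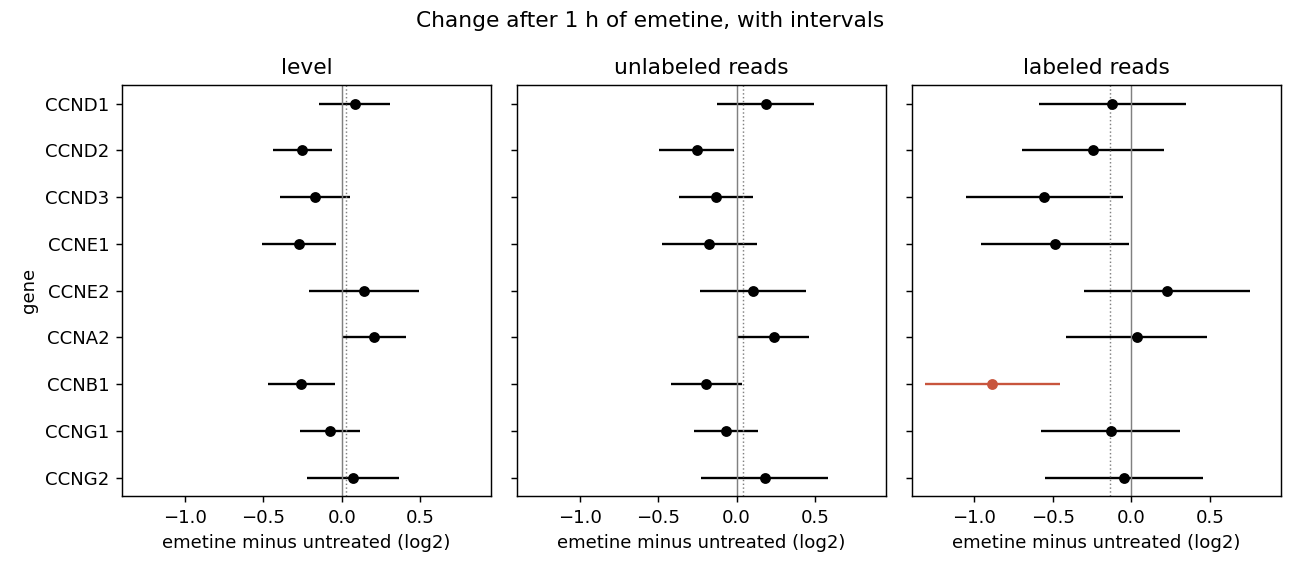
Change after 1 h of emetine (log2, emetine minus untreated, with 95% intervals from the fits) in level, unlabeled reads and labeled reads for the 9 genes; the dotted line is the median of all genes tested and red marks an adjusted p under 0.05. The labeled reads of CCNB1, at -0.89, are the one value in red.

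Related cyclins were then compared within libraries, in 6 pairs for level and the same 6 for fraction new. With 3 libraries against 3 the two-sided exact permutation test cannot give a p under 0.1, so no pair could pass. The within-library differences of the 2 groups lay apart in 4 of 6 pairs for level and in 2 of 6 for fraction new (5 without untreated replicate 1 and 4 without emetine replicate 1). The share of all gene pairs that lie apart was not computed, so these counts have no background. Of single genes, 19.5% lay apart upward and 15.2% downward in level, and 2.2% and 16.8% in fraction new. CCNA2, CCNB1, CCNE1 and CCND2 lay apart in level on their own, and CCNB1 in fraction new. CCNA2 stood 1.37 ± 0.10 below CCNB1 in log2 CPM in untreated cells and 0.90 ± 0.15 below it after emetine (SD, n = 3), a difference in response of 0.47 (95% interval 0.18 to 0.76, exact p = 0.1, adjusted over 6 pairs 0.15) without overlap between the groups. In the logit of the fraction new, CCNA2 exceeded CCNB1 by 0.18 ± 0.07 in untreated cells and by 0.53 ± 0.06 after emetine, a difference of 0.35 (0.21 to 0.49, exact p = 0.1, adjusted 0.3), again without overlap.

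CCNE1 exceeded CCNE2 in the logit of the fraction new by 0.62 ± 0.10 in untreated cells and by 0.27 ± 0.10 after emetine, a difference of -0.35 (-0.58 to -0.11, exact p = 0.1, adjusted 0.3) without overlap. In level the same pair differed by 1.76 ± 0.09 and 1.35 ± 0.42 (log2 CPM), a difference of -0.41 (-1.10 to 0.28, exact p = 0.1, adjusted 0.15). CCND1 and CCND2 differed in their response of level by 0.33 (0.03 to 0.64, exact p = 0.1, adjusted 0.15), also without overlap. CCNG1 and CCNG2, which differed the most in turnover, differed in the response of fraction new by 0.12 (-0.33 to 0.57, exact p = 0.6) and in that of level by -0.14 (-0.38 to 0.09, exact p = 0.1, adjusted 0.15). The other pairs of D cyclins gave exact p-values of 0.2 to 0.4 on both measures.

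The 5 genes whose logit of the fraction new lay nearest to that of CCNB1 over the 6 libraries, by Euclidean distance among 10763 genes, were BIRC5 (distance 0.12), SLC39A1 (0.19), RPS19BP1 (0.23), HN1L (0.24) and PLK1 (0.24). BIRC5 encodes survivin and PLK1 polo-like kinase, both of which act in mitosis. The mean fraction new was 11.6% in untreated and 7.20% in emetine libraries for BIRC5, and 11.7% and 6.55% for PLK1. It was 11.0% and 7.39% for SLC39A1, 10.4% and 6.47% for RPS19BP1, and 9.94% and 7.20% for HN1L. All 5 were chosen for their likeness to CCNB1 in these same libraries. A fall like that of CCNB1 is therefore built into the choice and is no separate result. CDC20, the activator of the ubiquitin ligase that destroys cyclin B1 in mitosis, had a fraction new of 11.5% ± 2.50 and 6.07% ± 0.40 (SD, n = 3), a logit change of -0.68 (adjusted p = 0.0477, limma), and its labeled reads fell from 41.0 ± 10.7 to 18.6 ± 3.41 CPM (log2 change -1.10, adjusted p = 0.000419, limma). CCNB2, the other main B cyclin, had 6.83 ± 1.75 and 4.94 ± 0.18 labeled CPM (log2 change -0.41, adjusted p = 0.555, limma) and was named after its values were seen. The 5 genes nearest to CCNE1, the gene with the largest log2 change of level among the 9, were, in order, TULP4 (distance 0.10), KDM8 (0.20), BICD2 (0.20), SOX21-AS1 (0.21) and FLVCR1 (0.22).

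Genes that peak in G2 and mitosis are known to carry CCAAT boxes, bound by NF-Y, and a cell cycle genes homology region (CHR), bound by the DREAM and MuvB complexes, just before their start. With s4U the levels of CCNB1 and CCNA2 after emetine lay on opposite sides of the untreated ones, but neither was called. Without s4U both were lower (log2 ratios -0.20 and -0.10), and with spike-in scaling both were higher (0.43 and 0.90), without a call. The 250 bases before the RefSeq start of both genes are shown 5′ to 3′ on the strand of the gene (RefSeq, GRCh38.p14; CCNB1 at chr5:69166900-69167149, plus strand, and CCNA2 at chr4:121823884-121824133, minus strand). Capitals mark CCAAT and the CHR hexamer TTTGAA, with its variants TTTAAA, or TTCGAA, or again CTTGAA, on either strand, and no matches overlap.
CCNB1: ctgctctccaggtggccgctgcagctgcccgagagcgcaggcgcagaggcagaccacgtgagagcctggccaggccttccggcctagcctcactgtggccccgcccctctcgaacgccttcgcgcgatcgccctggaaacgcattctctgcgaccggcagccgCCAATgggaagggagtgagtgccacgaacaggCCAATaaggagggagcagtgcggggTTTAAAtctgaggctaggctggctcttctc
CCNA2: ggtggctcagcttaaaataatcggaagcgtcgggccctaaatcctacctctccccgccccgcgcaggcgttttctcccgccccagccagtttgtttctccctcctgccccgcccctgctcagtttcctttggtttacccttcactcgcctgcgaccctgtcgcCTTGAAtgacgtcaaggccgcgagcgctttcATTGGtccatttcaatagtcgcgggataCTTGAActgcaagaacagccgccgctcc

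Both promoters held a CCAAT match and a CHR hexamer close to the start. In CCNB1 the CCAAT matches began 87 and 55 bases before the start and TTTAAA 30 bases before it; in CCNA2, ATTGG, which is CCAAT on the other strand, began 56 bases before the start and CTTGAA 87 and 28 bases before it. PLK1 held CCAAT 73 and TTTGAA 29 bases before its start, beside 2 further hexamers, and CDC20 held CCAAT 100 and 55 and TTTGAA 65 bases before its start, beside 1 further hexamer. PLK1 and CDC20 were picked for this search after their values were seen. SLC39A1, RPS19BP1 and HN1L, also among the genes nearest to CCNB1, were not searched, and BIRC5 had no promoter listed. Of 27305 RefSeq promoters of this length, 33% held CCAAT, 29.4% one of the hexamers and 10.5% both, so a match is a description and not evidence of binding. Of the 6 cyclin genes with a promoter in the table, CCNA2 and CCNB1 held both kinds of match, CCNE1 and CCNG2 a hexamer only, CCNG1 CCAAT only and CCND3 neither.

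AU-rich elements built on AUUUA in the 3′ untranslated region are bound by factors that speed or slow decay. The canonical GENCODE 44 transcripts carried 9 AUUUA in the 4136 bases of the CCNG2 3′ untranslated region, 7 in the 3192 bases of CCND1, 8 in the 5344 bases of CCND2, 10 in the 1408 bases of CCNE2, 4 in the 614 bases of CCNB1, 3 each in CCNA2 and CCNG1, 2 in CCND3 and 0 in the 535 bases of CCNE1. A match was searched on the mRNA strand, with overlapping matches counted. The windows of 30 bases that hold the most matches in the 2 mRNAs of highest fraction new and in CCNB1 and CCNG1, among the lowest, are shown with AUUUA in capitals, in DNA letters (hg38).
CCNG2 (chr4:77165937-77165966, plus strand): tctgtcagaATTTAtATTTAcaggtttcaa
CCND1 (chr11:69652681-69652710, plus strand): ATTTAtagttaaggctaaaaagtatATTTA
CCNB1 (chr5:69178100-69178129, plus strand): agttATTTActtttaccactATTTAagtta
CCNG1 (chr5:163443740-163443769, plus strand): atgttacaatggATTTAagctatgaagcct

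The number of matches differed along the order of turnover. In CCNG2, CCND1 and CCND2 it did not exceed the median of genes of similar 3′ untranslated region length. The density of matches did not follow turnover, and no relation was tested. CCNG2, CCND1, CCNE2 and CCND2, at ranks 1, 2, 4 and 5 in untreated fraction new, held 7 to 10 matches. CCNA2, CCNB1, CCND3 and CCNG1, at ranks 6 to 9, held 2 to 4. CCNE1, at rank 3 in untreated fraction new, had none, and 53.0% of protein-coding genes with a 3′ untranslated region within 10% of its length held at least 1. CCNE2 had the highest density (7.10 per kb, above 96.4% of 19550 protein-coding genes) and CCNB1 the next (6.51 per kb, above 95.4%), whereas CCNG2 and CCND1 had 2.18 and 2.19 per kb. Among all 19550 genes, 67.5% held at least 1 match. Genes with a 3′ untranslated region within 10% of the length held a median of 9 matches for CCNG2, 7 for CCND1 and 12 for CCND2. For the others that median was 1 or 2. The longer UAUUUAU occurred in CCNE2 (3), CCNG2 (2), CCND1 (1) and CCND2 (1), and it was held by 31.5% of all genes. Of genes of similar 3′ untranslated region length, 35.0%, 67.1%, 54.2% and 71.5% held it, in that order. The Pumilio element UGUANAUA occurred in CCNE2 (2), CCNG2 (2), CCND2 (1) and CCNB1 (1), against 25.4% of all genes. Of genes of similar 3′ untranslated region length, 27.0%, 54.4%, 59.2% and 12.7% held it, in that order.

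Over 9882 genes with features, untreated fraction new was related to 3′ untranslated region length with a Spearman's rho of 0.30 and to AUUUA density with 0.18, and over 9701 genes to the share of G or C at the third codon position with -0.06. These are descriptions across genes that share libraries. This position was G or C in 87.5% of CCND1, 76.2% of CCND2 and 78.2% of CCND3 codons but in 36.8% to 43.9% of CCNE2, CCNA2, CCNB1, CCNG1 and CCNG2 codons, with CCNE1 at 54.3% and a median of 60.8% over protein-coding genes. Both sides of that split held both rapidly and slowly renewed mRNAs, CCND1 and CCND3 in one and CCNG2 and CCNG1 in the other.

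**Figure D5:**
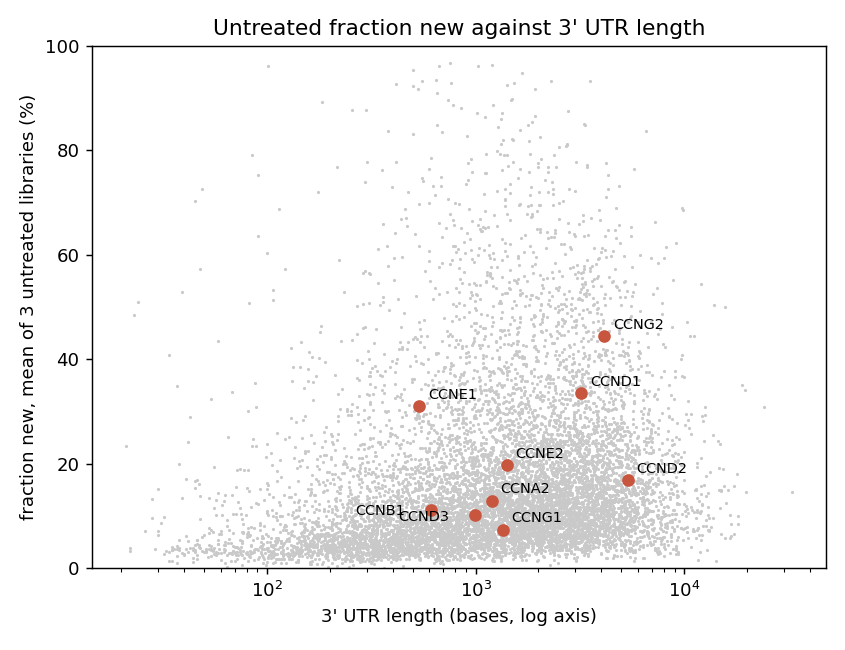
Fraction new (%, mean of the 3 untreated libraries) against 3′ untranslated region length (bases, log axis) for 9865 genes (grey) and the cyclin genes (red, named). CCNG2 and CCND1 have long 3′ untranslated regions and lie high, CCND2 has the longest of the 9 (5344 bases) and lies at 16.9%, and CCNE1 has the shortest (535 bases) and lies at 31.0%.

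Reads that cross a splice junction made up 75.4% of CCNB1 reads over the 6 libraries with s4U, 50.4% of CCNE1, 43.3% of CCNA2 and 7.26% of CCND2, whose transcript is mostly 3′ untranslated region. In CCNB1 the fraction new of junction reads was below that of its other reads in 6 of 6 libraries, with means of 10.6% and 13.1% in untreated and 6.21% and 9.34% in emetine libraries, so both means were lower after emetine. The junction reads lay apart between the groups (7.60% to 13.6% untreated, 5.48% to 6.86% emetine), while the other reads overlapped, emetine replicate 2 (10.5%) lying above untreated replicate 1 (9.67%). CCND2 also had the lower value in junction reads in 6 of 6 libraries, and CCNG1 had the higher one in 6 of 6 (8.70% against 7.14% in untreated libraries). No read of a cyclin gene carried the mark for an exon-intron boundary, so precursor RNA could not be followed separately. In the annotation 6 of the 9 genes overlap another gene, 4 of them only on the other strand, and whether strand was used in counting is not given in the sources used here. CCND2-AS1, the antisense gene at CCND2, had 1 to 13 reads per library.

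The libraries without s4U gave a second, unreplicated view of the levels. CCNB1 lay at 377 CPM untreated and 327 with emetine, a log2 ratio of -0.20 (95% interval -0.24 to -0.16, counting error only), on the same side as with s4U. CCND2 (109 and 102 CPM), CCND3 (80.5 and 70.7 CPM) and CCNG1 (301 and 238 CPM) were on the same side as well. CCNE1 (44.9 and 48.2 CPM, log2 ratio 0.10, -0.01 to 0.22) and CCNA2 (154 and 144 CPM, -0.10, -0.16 to -0.03) were on the other side. CCND1 lay at 52.2 and 38.8 CPM, CCNE2 at 16.9 and 8.94 CPM and CCNG2 at 20.02 and 13.7 CPM in these 2 libraries, whereas their log2 changes with s4U were 0.08, 0.14 and 0.07, and no replicate tells the spread of such a ratio.

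Other genes of the cyclin system were counted over 6 lists, and the members named from them are those that passed a test. Of the other cyclins, 18 were tested for level and 3 rose, beside 2.64% of all genes: CCNL1 (40.1 ± 3.42 to 66.6 ± 5.12 CPM, log2 change 0.73, adjusted p = 0.0116), CCNT1 (45.7 ± 1.80 to 74.8 ± 18.2 CPM, 0.71, 0.0497) and CCNT2 (29.4 ± 1.69 to 51.1 ± 13.3 CPM, 0.80, 0.0447; edgeR, SD, n = 3). These are transcriptional cyclins: cyclin L1 acts in splicing, and cyclins T1 and T2 pair with CDK9 in the elongation of transcripts. Their fraction new fell, in 3 of 15 tested beside 4.83% of all genes, from 83.6% ± 6.02 to 58.0% ± 1.74 for CCNL1 (logit change -1.35, adjusted p = 0.000391, limma), from 54.9% ± 7.41 to 36.4% ± 1.76 for CCNT1 (-0.76, 0.0363) and from 53.9% ± 11.9 to 31.0% ± 1.73 for CCNT2 (-0.96, 0.00494). Their unlabeled reads rose, in 3 of 15 tested beside 7.3% of all genes, by 2.06, 1.18 and 1.35 (log2), with adjusted p-values of 0.000689, 0.00627 and 0.00791 in limma. The other 15 other cyclins tested for level were not called. Counted at an unadjusted p under 0.05, 4 of 18 were higher and 0 lower in level (edgeR), beside 14.9% and 6.95% of all genes. In fraction new 6 of 15 were lower (limma), beside 15.4%, and in unlabeled reads 5 of 15 were higher (limma), beside 19.4%. DESeq2 called 3 for level, where it called 5.95% of all genes higher and 1.13% lower.

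Of 16 cyclin-dependent kinases and activators, none was called for level or fraction new. By unadjusted p under 0.05, 1 was higher and 1 lower in level (edgeR), beside 14.9% and 6.95% of all genes. In fraction new there were 0 (limma), beside 15.4% lower and 1.15% higher. DESeq2 called 1 for level, beside 5.95% of all genes higher and 1.13% lower. For unlabeled reads 1 of the 16 was called, CDC25A, the phosphatase that activates CDK2, which rose by 0.46 (log2, adjusted p = 0.0289, limma), beside 7.3% of all genes called higher. Of 10 CDK inhibitors and inhibitory kinases, none was called for level or for fraction new. By unadjusted p under 0.05, 2 were higher and 0 lower in level (edgeR), beside 14.9% and 6.95% of all genes. In fraction new 1 was lower (limma), beside 15.4%. DESeq2 called 0 for level, beside 5.95% higher and 1.13% lower. Of the 9 tested on the other measures, 2 had more unlabeled reads, again beside 7.3% of all genes: CDKN1B, the inhibitor p27, by 0.69 (adjusted p = 0.0413) and WEE1, the kinase that holds back CDK1, by 0.72 (adjusted p = 0.0422, limma). Of 19 RB and E2F genes, 1 was called higher in level (2.64% of all genes) and 1 lower in fraction new (4.83%). E2F2 rose in level by 0.52 (32.9 ± 1.23 to 47.2 ± 2.66 CPM, adjusted p = 0.0234, edgeR). The fraction new of E2F8, a repressive E2F, fell from 60.8% ± 14.1 to 40.6% ± 1.23 (adjusted p = 0.0288, limma). For unlabeled reads 2 were called higher (7.3%): E2F2 by 0.71 (adjusted p = 0.0354) and E2F8 by 1.13 (adjusted p = 0.0051, limma). At an unadjusted p under 0.05, 7 were higher and 2 lower in level (edgeR), beside 14.9% and 6.95% of all genes. In fraction new 2 were lower (limma), beside 15.4%. DESeq2 called 4 for level, where it called 5.95% of all genes higher and 1.13% lower.

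Of 25 genes of cyclin degradation, 1 was called higher in level (2.64% of all genes) and 3 lower in fraction new (4.83%). At an unadjusted p under 0.05, 4 were higher and 1 lower in level (edgeR), beside 14.9% and 6.95% of all genes. In fraction new 6 were lower (limma), beside 15.4%. DESeq2 called 2 for level, where it called 5.95% of all genes higher and 1.13% lower. FBXO5, an inhibitor of the anaphase-promoting complex, rose in level from 44.9 ± 2.86 to 71.2 ± 7.06 CPM (log2 change 0.66, adjusted p = 0.0155, edgeR), and its fraction new fell from 73.3% ± 7.35 to 48.6% ± 1.94 (adjusted p = 0.00315, limma). The fraction new also fell for ANAPC4, a subunit of that complex, from 10.0% ± 1.53 to 5.33% ± 1.03 (adjusted p = 0.0466, limma), and for CDC20. FBXO5 and CDC20 differed in their labeled reads, with log2 changes of 0.07 (adjusted p = 0.940) and -1.10 in limma; the difference between the 2 genes was not tested. None of the 11 partners of the G cyclins was called by edgeR or limma on any of the 4 measures, or by DESeq2 for level. By unadjusted p under 0.05, 1 was lower in level (edgeR), beside 6.95% of all genes. In unlabeled reads 1 was higher and 1 lower (limma), beside 19.4% and 7.06%. In fraction new and labeled reads there were 0 (limma), beside 15.4% and 10.6% of all genes lower. The median changes of level in the 6 lists lay between -0.07 and 0.16, and those of fraction new between -0.32 and -0.10.

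Of the 22 calls among the list genes, 4 held with each of the 6 libraries left out in turn: the fraction new of CCNL1 (adjusted p up to 0.0471) and the unlabeled reads of CCNL1, E2F8 and FBXO5 (up to 0.0109, 0.0378 and 0.0106, limma). The other 18 kept their sign and lost their call without at least 1 library. Several of these fits called fewer of all genes. With all 6 libraries 369 genes were called for level. Without untreated replicates 1, 2 and 3 it was 4, 5 and 19 genes. Without emetine replicates 1, 2 and 3 it was 134, 246 and 1892. For fraction new it was 543 with all 6, 2564 without untreated replicate 1 and 110 to 223 without any other library. For unlabeled reads it was 796 with all 6 and 286 to 1769 without 1 library. The level of CCNL1 reached an adjusted p of 0.0962, that of CCNT1 0.231, that of CCNT2 0.211, that of E2F2 0.149 and that of FBXO5 0.118 (edgeR), each lost without any 1 untreated library, and those of CCNT1, CCNT2 and E2F2 also without emetine replicate 1 and that of E2F2 without emetine replicate 2. With spike-in scaling, too, none of these 5 levels was called (adjusted p from 0.102 to 0.178, edgeR). The fraction new of CCNT1, CCNT2, ANAPC4, E2F8 and FBXO5 reached adjusted p-values of 0.293, 0.151, 0.357, 0.364 and 0.0782, and the unlabeled reads of CDC25A, CDKN1B and WEE1 reached 0.157, 0.191 and 0.185 (limma); leaving out untreated replicate 2, untreated replicate 3 or emetine replicate 1 ended each of these 8 calls. The labeled reads of CDC20 lost their call without emetine replicate 1 or untreated replicate 2 (adjusted p up to 0.207, limma), and its fraction new was called without untreated replicate 1 but not without any other library (up to 0.319). With spike-in scaling the labeled reads of CDC20 changed by -0.48 (log2, adjusted p = 0.716, limma).

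In the 2 h experiment the tables hold, as values, 1 authors' mean of spike-in-normalized counts per gene over all its libraries and treatments, and no change with dose was computed here. Per kb of transcript this mean was highest for CCNG1 (3928) and CCNB1 (2030), followed by CCNA2 (1529), CCND2 (852), CCND1 (316), CCNE1 (286), CCNE2 (208), CCND3 (166) and CCNG2 (131). CCNG1, CCNB1 and CCNA2 thus led and CCNG2 came last in both experiments, while CCND3 stood at rank 4 at 1 h and at rank 8 at 2 h. The 1 h ranks are of untreated libraries scaled to library size, while the 2 h mean pools untreated and emetine libraries scaled to spike-ins. The experiments also differed in library kit, s4U dose and time, and all these differences cannot be told apart here.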

How the data were processed

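RNA of HEK-293T cells was sequenced after TimeLapse chemistry. Per the study's methods, the authors trimmed reads with cutadapt, mapped them to hg38 with hisat-3n and tabulated T positions and T-to-C conversions per read with bam2bakR; the gene annotation they used is not given in the sources used here. The deposited 1 h table holds whole read counts per library, gene, number of T positions (the file's other columns) and conversions, without normalization. For the 2 h experiment the deposited signal values are the authors' mean of counts divided by spike-in size factors, over all libraries. Their log2 fold changes and p-values were not used, nor was the table of spike-in size factors.

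Reads were summed per gene. Of 19222 genes, 17152 matched a GENCODE 44 symbol, and reads assigned to several genes (0.976% to 1.09% of a library) were left out. Level was compared by edgeR 4.0.16 (TMM, quasi-likelihood test, over 100 counts in total) between 3 untreated and 3 emetine libraries. The fraction new was the weight of a 2-component binomial mixture, with the background rate from the library without s4U of the same treatment (0.0504% untreated, 0.0521% emetine) and the new-read rate fitted per library (8.49% to 9.53%). Its logit, with fractions bounded by 0.001 and 0.999, was compared by limma 3.58.1 (trend, robust) for genes that held 100 or more reads in every s4U library, and so were log2 labeled and unlabeled CPM after adding 0.5 CPM, so that changes of low genes are understated. For labeled reads the fit took the spread almost wholly from all genes together. For fraction new it did so for the most part (81.5 degrees of freedom from 6 libraries), so its intervals are not the spread of 1 gene alone. Adjusted p-values are Benjamini-Hochberg over all genes tested. Pairs of cyclins were compared by two-sided exact permutation tests. Intervals are at 95%; those on fraction new and on ratios of single libraries cover counting error only, since no molecular identifiers are described. Steps were tested on simulated data. R 4.3.3, DESeq2 1.42.0, Python 3.11.15 (scipy 1.17.1, numpy 2.4.6, matplotlib 3.10.9 and pandas 2.3.3) were used.

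The cyclin genes and the lists were chosen with earlier results of these data known. Named genes were the 9 cyclin genes, list genes with an adjusted p under 0.05, and the 5 genes nearest in fraction new to the cyclin gene of smallest p for fraction new (CCNB1) and to that of largest change of level (CCNE1). List genes called in labeled or unlabeled reads alone (CDC25A, CDKN1B and WEE1) and the motif searches were added after values were seen. Alternatives were another tool, other size factors, spike-in scaling, other minimum counts and pseudocounts, other estimates of the fraction new, a replicate block and leaving out each library.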

Additional observations from a re-analysis of the deposited data

Results flagged for a closer look

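The levels of CCNE1 and CCNA2 after emetine lay on one side of the untreated ones in the libraries with s4U and on the other side in the pair without it. The level of CCNE1 was lower in 3 of 3 emetine libraries with s4U (log2 change -0.27) and higher without s4U (log2 ratio 0.10, 95% interval -0.01 to 0.22, counting error only). The level of CCNA2 was higher in 3 of 3 emetine libraries with s4U (log2 change 0.21) and lower without s4U (-0.10, -0.16 to -0.03). The difference between the settings was not tested, because there was 1 untreated and 1 emetine library without s4U. Of the 4778 genes whose groups did not overlap with s4U, 1143 (23.9%) lay on the other side without it.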

How the results depend on the processing

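The number of cyclin genes called for level was 0, and 1 by DESeq2 (CCND2, lower). For fraction new it was 0, and 1 with libraries weighted by reads (CCNB1). For labeled reads it was 1, and 0 without a minimum number of reads (CCNB1 at an adjusted p of 0.0932, limma, with more genes tested) or with spike-in scaling. For unlabeled reads it was 0 under every alternative run. Leaving out each library in turn gave 0 to 2 genes for level, 0 to 3 for fraction new, 0 to 3 for labeled reads and 0 for unlabeled reads. The pairs whose groups lay apart numbered 4 to 5 for level and 2 to 5 for fraction new. Beside the calls of leaving out 1 library given above, 2 genes were called for level without emetine replicate 3 (CCND2 and CCNB1), and 3 each for fraction new (CCND1, CCND3 and CCNB1) and labeled reads (CCND3, CCNE1 and CCNB1) without untreated replicate 1, where 23.4% and 16.1% of all genes were called lower.

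Spike-in scaling shifted the median of all genes to 0.71 for level, 0.41 for labeled and 0.66 for unlabeled reads and turned the sign of 16 changes without a call: in level CCND2 (0.44), CCND3 (0.48), CCNE1 (0.41), CCNB1 (0.43) and CCNG1 (0.62), in labeled reads CCND1 (0.48), CCND2 (0.37), CCND3 (0.031), CCNE1 (0.12), CCNG1 (0.48) and CCNG2 (0.54), and in unlabeled reads CCND2 (0.37), CCND3 (0.49), CCNE1 (0.44), CCNB1 (0.43) and CCNG1 (0.56). Relative to that shift the level of CCNB1 was -0.28 and that of CCND2 -0.27. The spike-in reads varied within the emetine group, with 126672, 325443 and 120560 in replicates 1 to 3, beside 34193101, 40018063 and 24241615 gene reads. Untreated replicates 1 to 3 held 236732, 213771 and 199699 spike-in reads, beside 28781645, 36429562 and 22246279 gene reads. The shift therefore rests on uneven scaling factors. In fraction new the sign turned for CCNG1 when centered on the library median (0.079, also with the replicate block) and for CCND2 when weighted (-0.030) or taken as the share of reads with at least 2 conversions (-0.012). None of these was called. Without 1 library the sign turned for values near 0, with ranges of -0.017 to 0.24 (CCNE2) and -0.019 to 0.13 (CCNG2) in level, -0.15 to 0.10 (CCND2), -0.12 to 0.25 (CCNE2), -0.15 to 0.017 (CCNG1) and -0.42 to 0.00091 (CCNG2) in fraction new, -0.057 to 0.38 (CCNE2), -0.11 to 0.12 (CCNA2) and -0.21 to 0.093 (CCNG2) in labeled reads, and -0.022 to 0.20 (CCNE2) in unlabeled reads. With a minimum of 500 reads CCNE2 and CCNG2 were not tested.

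Same-numbered untreated and emetine libraries did not deviate together (correlations of 0.07, -0.02 and -0.18 in log2 CPM and 0.06, 0.00 and 0.02 in logit fraction new over 10763 genes), so the numbers were not taken to pair them. With the replicate block the counts of cyclin genes called were 0 for level, 0 for fraction new, 1 for labeled reads (CCNB1, adjusted p = 0.0138, limma) and 0 for unlabeled reads, and no call of a cyclin gene of the 9 changed. Among the list genes the block took the adjusted p of the level of CCNL1, CCNT1, CCNT2, E2F2 and FBXO5 to 0.0562, 0.0757, 0.0638, 0.0876 and 0.0510 (edgeR), that of the fraction new of CDC20 to 0.0516, and those of the unlabeled reads of CDC25A, CDKN1B, E2F2 and WEE1 to 0.115, 0.112, 0.107 and 0.0870 (limma). Over all genes the block gave 78 calls for level against 369, 687 for fraction new against 543, 97 for labeled reads against 96 and 358 for unlabeled reads against 796. Centering and the block together gave CCNB1 an adjusted p of 0.102 for fraction new (limma); this was chosen after seeing the data. The cause of these differences was not tested. Depth limits CCNE2 and CCNG2 most, which held 292 to 566 reads in each library with s4U.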
